A study of Mus musculus with 6 samples.

Results

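Khdc3, Nlrp4c, Nlrp4f, Nlrp14 and Nlrp3 are the 5 genes described here, out of 2031 in the table analysed. They were taken by name, as the protein-coding genes called Khdc, Ooep, Oog or Nlrp with a number. Every gene in the table had been selected on the difference between MF and NC by the authors, so that difference chose the members. It is given for them as a description, and calls of a test on it are printed only beside the share of all genes called, as support for nothing. MF (3 libraries) are differentiating derivatives of the mouse embryonic stem cell line J1, strain 129S4/SvJae, kept in a static magnetic field incubator. NC (3 libraries) are the same kind of cells kept in a conventional incubator. The libraries of each group are given as biological triplicates. All cells come from the single line J1 and were aggregated in hanging drops as embryoid bodies, following a protocol aimed at heart muscle. No source used here states the field strength, the length of exposure or the collection day. Recovered library totals lay between 14929232 and 19176383 counts, and the unit of level, FPKM, is fragments scaled by gene length and by the library total.

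Khdc3 and several Nlrp proteins are known as products that the mouse oocyte stores for the first divisions of the embryo. The subcortical maternal complex, an assembly under the oocyte surface built by Nlrp5, Ooep, Tle6, Khdc3, Padi6 and partners such as Nlrp4f, is needed for cleavage. Nlrp proteins share a pyrin domain, a nucleotide-binding domain and leucine-rich repeats, and one branch of the family serves innate immunity while another is expressed in germ cells.

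The oocyte and embryo description is set beside what is known of the members and beside cell markers. Because the table holds only genes selected on the difference, absence of a marker from it does not show that the marker was not expressed. Nlrp3 is best known as the sensor of an inflammasome, a caspase-activating complex of macrophages, and is named as a member by its symbol alone. Of 11 listed zona pellucida and oocyte-secreted genes 0 are in the table analysed. Of 14 granulosa and follicle cell markers, Kitl alone is in it, with between 4.83 and 9.68 FPKM in MF and between 1.23 and 2.69 FPKM in NC. The annotation (GENCODE M21, GRCm38, the build called mm10 in the submitters' processing notes) names 27 protein-coding genes that the naming rule would take, 13 of them on chromosome 7. The 22 others, among them Nlrp5, Ooep, Nlrp2, Nlrp4e and the oogenesins, were not analysed here.

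The members lie on 4 chromosomes of mm10 and no member has another gene of the naming rule within 500 kb. Khdc3 (ENSMUSG00000092622) is at chr9:73101836-73104438 on the plus strand. Nlrp4c (ENSMUSG00000034690) is at chr7:6045161-6105150 and Nlrp14 (ENSMUSG00000016626) at chr7:107166990-107198102, both on the plus strand. Nlrp4f (ENSMUSG00000032999) is at chr13:65177111-65205977 on the minus strand, and Nlrp3 (ENSMUSG00000032691) at chr11:59541568-59566956 on the plus strand. Values are counts over all exons of each gene, and the length used in the files equals the exon union of the annotation for all 5.

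Nlrp4c and Nlrp4f are copies of one ancestral gene, and the start of their coding sequences is printed to show how close they and the copy Nlrp4e are. The first 60 coding bases are given from GENCODE transcripts, 5′ to 3′, and capitals mark bases that differ from Nlrp4c.
Nlrp4c: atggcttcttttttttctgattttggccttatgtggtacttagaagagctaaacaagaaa
Nlrp4f: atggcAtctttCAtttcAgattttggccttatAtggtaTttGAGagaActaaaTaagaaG
Nlrp4e: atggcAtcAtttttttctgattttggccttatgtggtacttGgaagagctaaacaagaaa
Nlrp4f differs from Nlrp4c at 12 of these 60 bases and Nlrp4e at 3. Over the longest coding sequences, Nlrp4c was identical to Nlrp4f at 83.4% of bases and to Nlrp4e at 93.9%, counted over the shorter sequence. Nlrp14 and Nlrp3 were between 53.8% and 58.2% identical to the other Nlrp members.

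Shared sequence bears on what a count can mean. Of all 50-base words in the transcripts of Nlrp4c, 10.7% also occur in transcripts of other genes, mostly Nlrp4e, with which its longest identical coding run is 120 bases. The share was 5.95% for Nlrp4f, mainly with the pseudogene Nlrp4g. For Khdc3 it was 34.1%, all with Gm20509, a gene model that overlaps it on the same strand. It was 0 for Nlrp14 and Nlrp3, and no word was shared between members. No source used here states how reads with several origins were counted, so the counts of Khdc3, Nlrp4c and Nlrp4f are uncertain to that extent.

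The sequence before the start site is printed for Khdc3, Nlrp4c and Nlrp4f. These were highest in replicate 2 of both groups, as were Nlrp14 and 73.8% of the 595 other tested genes lower in MF. Nlrp3 had another pattern. RefSeq windows (GRCm38.p6) from 250 bases before to 50 bases after the start were found for 4 of the 5 members, all but Nlrp14. Capitals mark matches to CANNTG, the E-box read by basic helix-loop-helix factors such as the oocyte factor Figla, searched on both strands.
Khdc3, chr9:73102148-73102447, plus strand: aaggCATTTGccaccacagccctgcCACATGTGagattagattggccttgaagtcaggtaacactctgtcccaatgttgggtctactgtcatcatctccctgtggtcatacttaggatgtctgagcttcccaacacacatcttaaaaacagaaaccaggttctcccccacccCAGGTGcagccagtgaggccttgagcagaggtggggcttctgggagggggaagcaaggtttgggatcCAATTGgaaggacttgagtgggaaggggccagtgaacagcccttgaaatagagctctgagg
Nlrp4c, chr7:6044911-6045210, plus strand: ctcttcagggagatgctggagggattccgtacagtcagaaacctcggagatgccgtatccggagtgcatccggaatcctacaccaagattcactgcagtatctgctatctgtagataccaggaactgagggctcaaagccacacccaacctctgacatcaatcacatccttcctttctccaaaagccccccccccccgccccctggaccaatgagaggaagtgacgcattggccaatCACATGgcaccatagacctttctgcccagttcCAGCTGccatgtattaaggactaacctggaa
Nlrp4f, chr13:65205667-65205966, minus strand: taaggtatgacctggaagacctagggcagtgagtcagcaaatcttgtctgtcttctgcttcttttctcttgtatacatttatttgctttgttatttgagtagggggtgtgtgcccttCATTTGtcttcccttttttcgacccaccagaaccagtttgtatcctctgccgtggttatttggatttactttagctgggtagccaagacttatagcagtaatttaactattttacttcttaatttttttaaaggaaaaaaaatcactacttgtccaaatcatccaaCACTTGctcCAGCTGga
Khdc3 holds 5 matches, a pair of which overlap, Nlrp4f 3 and Nlrp4c 2. Of the 2 windows of Nlrp3, 1 holds a single match and the other none. A match is common, in 72.3% of 32851 windows of this length, and the form CAGGTG found in Khdc3 occurs in 20.2%. The letters TAATTG, the element read by the oocyte factor Nobox, are in none of the 5 windows and in 8.0% of all. CpG dinucleotides number 0 in the Khdc3 window, 2 in Nlrp4f, 7 in Nlrp4c and 4 or 5 in those of Nlrp3, against a median of 7 over all windows, of which 94.6% hold at least 1. The Khdc3 and Nlrp4f windows lie inside the span that the files give for each gene. These matches describe letters in a window and no binding was measured.

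All 5 members were lower in MF than in NC in the authors' deposited table, where 36.8% of the 2031 genes are lower. The transcript levels of all 5 were lower in every MF library than in any NC library, against 33.7% of the 1983 named genes. Because the selection fixed a difference for each gene, nothing about the members is read from these shares. In bulk RNA, fewer cells that express a gene and less RNA per cell cannot be told apart.

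**Figure D1:**
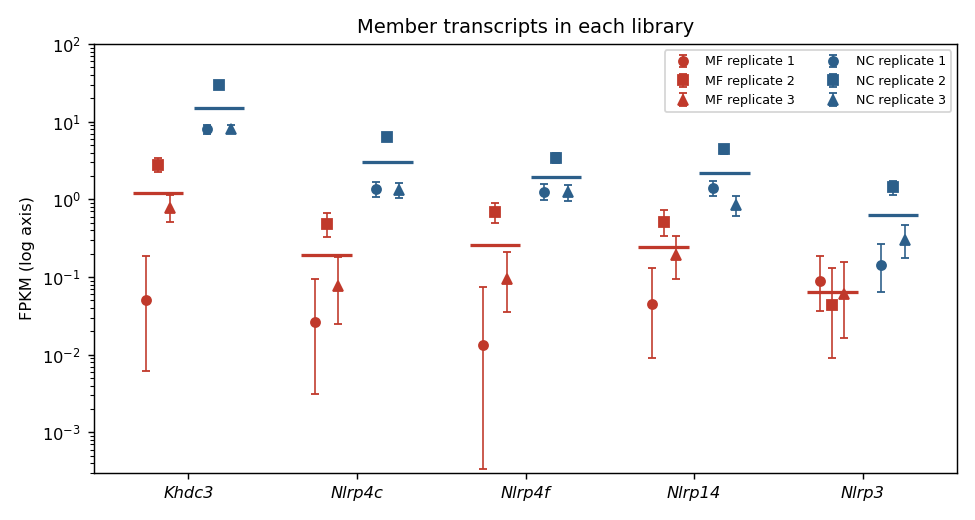
FPKM (log axis) of the 5 members in each library, MF to the left of NC for each gene; circles, squares and triangles are replicates 1, 2 and 3, horizontal bars are group means and whiskers are exact 95% counting intervals. MF and NC points do not overlap for any member, and replicate 2 is the highest library of both groups for every member except Nlrp3, whose highest MF library is replicate 1.

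The parts of the subcortical maternal complex are taken first. Khdc3, also called Filia, is an RNA-binding KH-domain protein that keeps chromosomes stable in the early mouse embryo. It had 0.0509, 2.76 and 0.779 FPKM in MF replicates 1 to 3, against 7.95, 29.3 and 8.07 FPKM in NC replicates 1 to 3. The groups did not overlap, MF replicate 1 rested on 2 counts, and NC replicate 2 stood far above the other NC libraries. The means were 1.20 ± 1.40 FPKM in MF and 15.1 ± 12.3 FPKM in NC (SD, n = 3 each), and edgeR's log2 fold change was -3.66 (SE 1.06), a level 12.6-fold lower in MF.

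Nlrp4f, a partner of the complex in mouse oocytes, was lower-expressed per length than Khdc3. It had 0.0135, 0.677 and 0.0953 FPKM in MF replicates 1 to 3, against 1.24, 3.40 and 1.23 FPKM in NC replicates 1 to 3. Its MF replicate 2 value, from 44 counts, came nearest to the NC range among the MF libraries, and MF replicate 1 held a single count. The means were 0.262 ± 0.362 FPKM in MF and 1.96 ± 1.25 FPKM in NC (SD, n = 3 each), with a log2 fold change of -2.90 (SE 1.06).

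Of 10 listed genes of the complex and its partners, 4 are in the table analysed. Padi6, a protein of the oocyte's cytoplasmic lattices, had 0 counts in all MF libraries, against 0.101, 0.417 and 0.0794 FPKM in NC replicates 1 to 3. With a floor of 3 counts over the MF group and its 24 NC counts taken as exact, it was 8.95-fold lower in MF. Of those NC counts 17 were in NC replicate 2, without which the value was 3.99-fold. Counting error in NC is not in these values. Zbed3, a partner of the complex that is also made outside the germ line, went the other way, with 22.3, 13.7 and 20.6 FPKM in MF replicates 1 to 3 and 9.93, 5.26 and 9.16 FPKM in NC replicates 1 to 3. Its log2 fold change was 1.22 (SE 0.42), equal to the median over all tested genes. In both groups replicate 2 was the lowest library for Zbed3 and the highest for Khdc3 and Nlrp4f.

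Nlrp4c and Nlrp14 are the other germ-line Nlrp members. Khdc3, Nlrp4f, Nlrp4c and Nlrp14 are called germ-line members here for what is known of them elsewhere. The presence of germ cells in these cultures was not tested. Nlrp4c, one of the multiplied mouse copies of Nlrp4, had 0.0260, 0.475 and 0.0766 FPKM in MF replicates 1 to 3, against 1.35, 6.36 and 1.32 FPKM in NC replicates 1 to 3. The means were 0.193 ± 0.246 FPKM in MF and 3.01 ± 2.90 FPKM in NC (SD, n = 3 each). Its log2 fold change of -3.96 (SE 1.06) was the largest fall among the members, rank 24 of 599 tested genes with a lower level in MF. Khdc3 was at rank 32, Nlrp14 at 70 and Nlrp4f at 106. The SEs of 0.93 to 1.06 belong to each gene's own difference between the groups. Differences between members were not tested, so their order is not read as a result.

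Nlrp14, which in mouse is made in male and female germ cells, had 0.0442, 0.505 and 0.191 FPKM in MF replicates 1 to 3, against 1.39, 4.40 and 0.833 FPKM in NC replicates 1 to 3. MF replicate 1 held 3 counts, and NC replicate 3, from 44 counts, was the lowest NC library. The means were 0.247 ± 0.235 FPKM in MF and 2.21 ± 1.92 FPKM in NC (SD, n = 3 each), with a log2 fold change of -3.16 (SE 0.93). NC replicate 3 was 0.599 times NC replicate 1 for Nlrp14, while this ratio was between 0.975 and 1.02 for Khdc3, Nlrp4c and Nlrp4f.

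Nlrp3 was the lowest member and the one with a pattern of its own within the groups. It had 0.0900, 0.0440 and 0.0606 FPKM in MF replicates 1 to 3, against 0.142, 1.42 and 0.297 FPKM in NC replicates 1 to 3. The MF libraries held 7, 3 and 4 counts, so their order is within counting error, and the MF replicate 1 interval of 0.0362 to 0.185 FPKM overlaps the NC replicate 1 interval of 0.0648 to 0.269 FPKM. NC replicate 2 held 93 of the 120 NC counts. Its mean over the 6 libraries, 0.343 FPKM, was under the minimum of 0.5 FPKM for testing, and without that filter its log2 fold change was -3.21 (SE 0.97).

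Of the 25 listed inflammasome and NLR genes, 4 are in the table and all 4 were lower in MF in the authors' table, where 36.8% of all 2031 genes are lower. Besides Nlrp3 these 4 are Pycard, the adaptor of the inflammasome, Gsdmd, the pore former cut by its caspase, and Aim2, a DNA sensor. The 3 fell in MF with log2 fold changes of -1.11 (SE 0.48), -1.14 (SE 0.46) and -1.31 (SE 0.54), smaller than those of the germ-line members. Gsdmd had 1.51, 1.93 and 1.94 FPKM in MF replicates 1 to 3 and 4.62, 3.42 and 3.86 FPKM in NC replicates 1 to 3, and NC replicate 2 was its lowest NC library, while Pycard and Aim2, like Nlrp3, were highest there. Of 14 macrophage and leukocyte markers, the receptor Csf1r alone is in the table, and it was higher in MF, with 2.75, 2.94 and 3.55 FPKM in MF replicates 1 to 3 against 1.01, 1.72 and 1.46 FPKM in NC replicates 1 to 3. Its log2 fold change of 1.14 (SE 0.43) was below the median of all tested genes. The part of such cells in the Nlrp3 values was not tested.

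Of the 5 members 4 passed the filter of a mean of 0.5 FPKM, and all 4 were called lower in MF by edgeR (quasi-likelihood, p-values adjusted by Benjamini-Hochberg across 1651 genes), which called 35.4% of the tested genes lower. The contrast is the one that selected the genes, so the calls support nothing further. The calls depended on single libraries, as they did for the whole table. Without MF replicate 3 edgeR called 0 of the 4 lower (3 at an unadjusted p under 0.05), and 0 of all 1651 genes lower and 12 higher. Without NC replicate 2 it called 1 of the 4, and 146 of all genes lower. Without MF replicate 1 or NC replicate 1 it called 3 of the 4, with 90 and 219 of all genes lower. Without MF replicate 2 the log2 fold change of Nlrp4f was -5.17. If p-values were adjusted for 19069 tests, the number that the authors' own adjustment implies, edgeR called 0 of the 4 and 0 genes of the table. All 4 had an unadjusted p under 0.05, and DESeq2 on the same library totals called all 4, as it called every one of the 1651 genes (599 lower, 1052 higher). The median log2 fold change of the 4 was -3.41, against -1.75 over all tested genes with a lower level in MF and 1.22 over all tested genes.

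Same-numbered libraries deviated together from their group means, so each MF library is also set beside the NC library of its number. No label states such pairs, and MF replicate 1 correlated more with NC replicate 3 (r = 0.54) than with NC replicate 1 (r = 0.39). The percentages for single numbers therefore depend on a pairing that was not established. Khdc3 in MF stood at 0.640%, 9.40% and 9.66% of NC for numbers 1 to 3, with a 95% counting interval of 0.0771% to 2.34% for number 1. Nlrp4c stood at 1.92%, 7.47% and 5.81%, and Nlrp14 at 3.18%, 11.5% and 22.9%. Nlrp4f stood at 1.09%, 19.9% and 7.75%. For these 4 genes number 1 had the lowest percentage, and for Khdc3 its interval lies below those of numbers 2 and 3. For Nlrp3 the order was turned, with 63.5%, 3.09% and 20.4%, and the number 1 interval of 20.1% to 192% includes no difference.

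**Figure D2:**
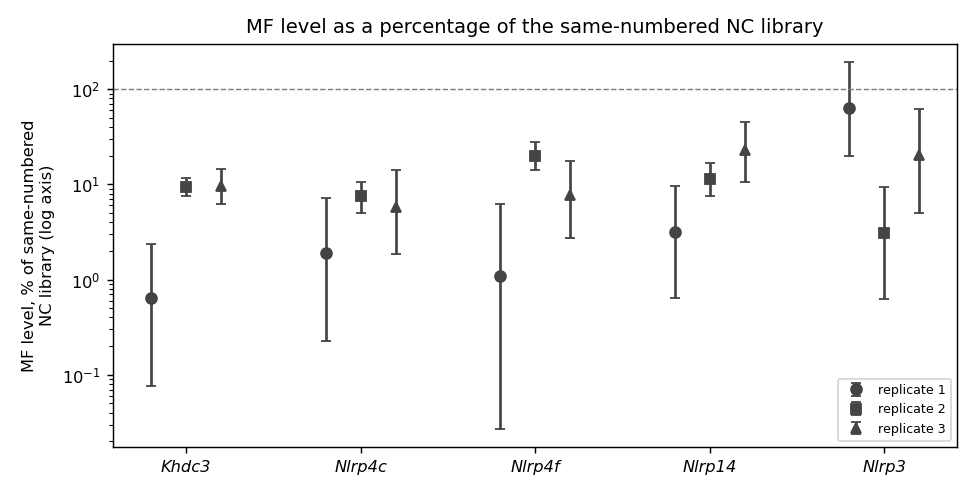
Level in each MF library as a percentage of the same-numbered NC library (log axis), with exact 95% intervals that cover counting error alone; the dashed line marks equal levels. Khdc3, Nlrp4c, Nlrp4f and Nlrp14 are at most at 22.9% in every pair, and Nlrp3 reaches 63.5% in number 1.

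Replicate 2 stood apart from replicates 1 and 3 of its group. MF replicate 2 exceeded the mean of MF replicates 1 and 3 by 6.65-fold for Khdc3, 9.26-fold for Nlrp4c, 12.4-fold for Nlrp4f and 4.29-fold for Nlrp14, against a median of 1.98 over the 595 other tested genes lower in MF. For Nlrp3 that ratio was 0.585. NC replicate 2 exceeded the mean of NC replicates 1 and 3 by 3.66-fold for Khdc3, 4.76-fold for Nlrp4c, 2.76-fold for Nlrp4f, 3.96-fold for Nlrp14 and 6.48-fold for Nlrp3. The median of this ratio was 1.89 over those 595 other genes, of which 80.7% were highest in NC replicate 2. Replicate 2 therefore stood apart in the same direction in both groups for 4 of the 5 members, as it did for 73.8% of the other lower genes.

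By the ratio of group means, leaving out both replicate 2 libraries left the groups further apart for the germ-line members, slightly so for Nlrp14, and closer for Nlrp3. The ratio of the NC mean to the MF mean was 19.3 for Khdc3 without them, against 12.6 with them. It was 26.1 against 15.6 for Nlrp4c, 22.7 against 7.47 for Nlrp4f and 9.45 against 8.96 for Nlrp14. For Nlrp3 it was 2.92 without them and 9.57 with them, so its difference rested largely on NC replicate 2.

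The share of Khdc3 among the counts of the germ-line members was steadier than their levels. Khdc3 took 25% of the counts of the 4 genes in MF replicate 1 (8 counts), 47.3% in MF replicate 2 (201 counts) and 54.2% in MF replicate 3 (48 counts), against 51.8%, 52.6% and 56.0% in NC replicates 1 to 3 (492, 1843 and 441 counts). The 6 exact 95% intervals all overlap, the highest lower bound being 51.2% (NC replicate 3) and the lowest upper bound 54.4% (MF replicate 2). A difference in the Khdc3 share was not detectable at these depths. The Nlrp4f share of the 4 genes did differ beyond counting error. It was 21.9% (16.4% to 28.3%) in MF replicate 2 and 11.5% (10.1% to 13.0%) in NC replicate 2.

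Nlrp4f and Nlrp4c, the related copies, did not keep one proportion. Nlrp4f made up 33.3% of their joint counts in MF replicate 1 (3 counts), 57.9% in MF replicate 2 (76) and 54.5% in MF replicate 3 (11), against 46.9% in NC replicate 1 (160), 34.0% in NC replicate 2 (623) and 47.3% in NC replicate 3 (150). The NC replicate 2 interval of 30.3% to 37.9% lies below those of NC replicate 1 (39.0% to 54.9%), NC replicate 3 (39.1% to 55.6%) and MF replicate 2 (46.0% to 69.1%). Nlrp4c was therefore the more abundant copy in the library where both were highest, beyond counting error, and Nlrp4f was not less abundant in any library but NC replicate 2 beyond that error. Both genes share words with other copies, as given above.

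**Figure D3:**
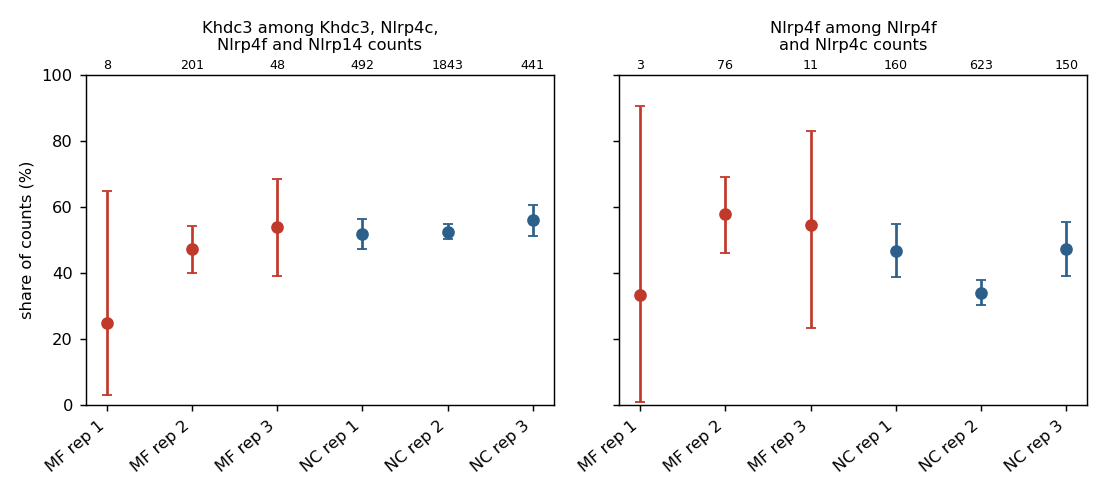
Left, Khdc3 counts as a percentage of the counts of Khdc3, Nlrp4c, Nlrp4f and Nlrp14; right, Nlrp4f counts as a percentage of Nlrp4f and Nlrp4c counts; one point per library (MF red, NC blue) with exact 95% intervals and the number of counts above. Khdc3 stays near 52.6% wherever counts are many, while the Nlrp4f share is lowest among the well-counted libraries in NC replicate 2, at 34.0%.

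Genes of the germ line and of naive pluripotency in the table were also highest in replicate 2 of each group by their list medians. Of 28 listed germ cell RNA and piRNA factors 18 are in the table and 17 were tested, of which 16 fell and 1 rose in MF, with a list median log2 fold change of -2.25. Asz1 fell with a log2 fold change of -3.70 (SE 0.98), Tex19.2 with -3.10 (SE 1.02) and Fkbp6 with -3.02 (SE 0.90), and Tdrd7 rose with 1.06 (SE 0.39). All 9 deposited genes of the 29 listed for meiosis fell, with Stra8, the trigger of meiotic entry, at -4.48 (SE 0.95) and Terb2, a telomere attachment factor, at -2.56 (SE 0.90). All 5 deposited of 12 primordial germ cell regulators and all 7 deposited of 28 naive pluripotency genes fell. These lists were chosen with earlier results of the data known, and 35.4% of all tested genes were called lower.

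The germ-line members shared that order. Their median lay at -4.13, -1.83 and -3.49 log2 units from the NC mean in MF replicates 1 to 3 and at -0.55, 1.26 and -0.67 in NC replicates 1 to 3, on the log2(FPKM + 0.1) scale. The 9 meiosis genes had -2.62, -1.05 and -1.75 in MF replicates 1 to 3 and -0.28, 0.83 and -0.62 in NC replicates 1 to 3. The 5 primordial germ cell regulators had -3.62, -1.17 and -2.87 in MF replicates 1 to 3 and -0.44, 0.82 and -0.55 in NC replicates 1 to 3. In every MF library they lay between the members and the meiosis genes. The median of the cardiomyocyte markers ran opposite, at 4.11, 1.68 and 2.87 in MF replicates 1 to 3 and -0.19, -0.46 and 0.50 in NC replicates 1 to 3. Single markers did not all follow it, as 3 of the 14 tested were highest in MF replicate 2 and 2 in NC replicate 2. Of 20 cardiomyocyte markers 15 are in the table, 14 were tested and all 14 rose, and all 15 deposited of 18 fibroblast and mesenchyme markers rose. Of all 1651 tested genes, each selected on this difference, 1026 were called higher in MF. The summed level of the 15 cardiomyocyte markers ranged from 168.8 to 793.6 FPKM over the MF libraries and from 40.4 to 89.5 FPKM over the NC libraries, and 1 of them was at 0 in at least 1 library. The 15 fibroblast and mesenchyme markers summed to between 333.4 and 1546 FPKM in MF and between 187.5 and 357.3 FPKM in NC, also with 1 at 0 in at least 1 library. Both sums were lowest in replicate 2 of each group. The part of these cell types in the members' difference was not tested.

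**Figure D4:**
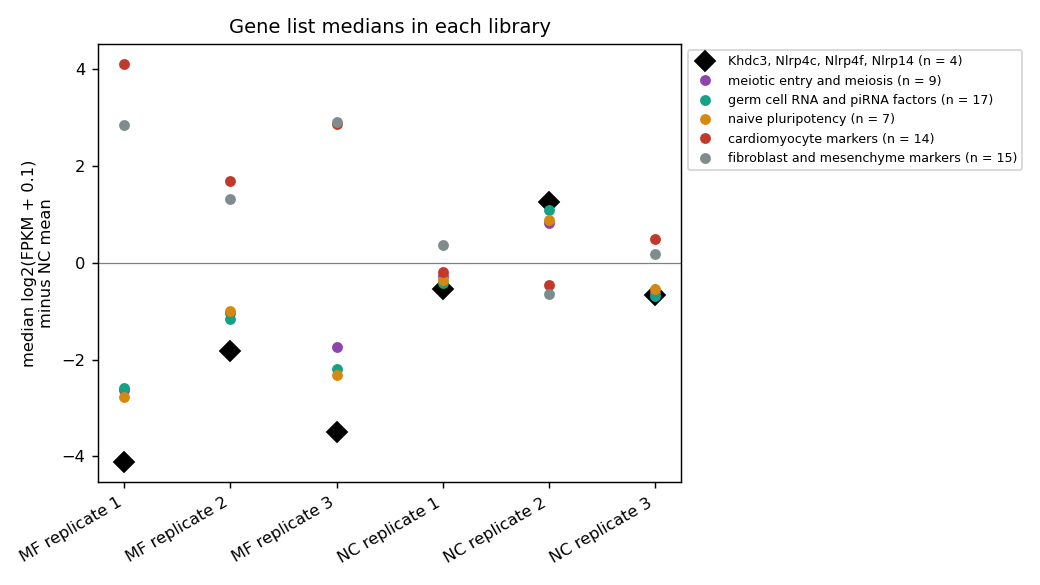
Median over each gene list of log2(FPKM + 0.1) minus the gene's NC mean, in every library, MF to the left; diamonds are Khdc3, Nlrp4c, Nlrp4f and Nlrp14, and n is the number of genes that passed the 0.5 FPKM filter. Medians of the germ-line and pluripotency lists are highest in replicate 2 of each group and that of the cardiomyocyte markers is lowest there, with the members at -4.13, -1.83 and -3.49 in MF.

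Other oocyte and embryo families in the table were also lower in MF, most of them at low levels. Sohlh2, a transcription factor of early oocytes and spermatogonia, had 0.199, 5.29 and 2.16 FPKM in MF replicates 1 to 3 and 15.9, 77.1 and 17.5 FPKM in NC replicates 1 to 3. Dppa5c, a relative of Khdc3 with near-identical copies, had 0.150, 2.39 and 1.24 FPKM in MF replicates 1 to 3 and 11.7, 64.7 and 22.5 FPKM in NC replicates 1 to 3. Of 57 listed PRAME family genes, relatives of the oogenesins, 4 are in the table and all 4 were lower in the authors' table, where 36.8% of all 2031 genes are lower. Prame and Pramel3 had 0 counts in MF. They were 11.2-fold and 14.5-fold lower there, taking 3 counts over the MF group and the NC counts as exact. Without NC replicate 2, which held 18 of the 30 NC counts of Prame and 34 of the 39 of Pramel3, these values were 6.83-fold and 2.85-fold. Pramel6 and Pramel7 fell with log2 fold changes of -3.30 (SE 1.22) and -3.19 (SE 1.15). Pramel6 overlapped between the groups, with 0.343 FPKM in MF replicate 2 and 0.306 FPKM in NC replicate 1.

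Genes of the 2-cell embryo were low. Of 38 listed, 4 are in the table, and all 4 were lower in MF in the authors' table and highest in NC replicate 2. Of all 2031 genes 36.8% are lower there. Of the 595 tested genes lower in MF other than members, 80.7% were highest in NC replicate 2. Zscan4f, a telomere and genome activation factor, had 0, 0 and 0.0941 FPKM in MF replicates 1 to 3 and 0.228, 1.62 and 0.137 FPKM in NC replicates 1 to 3, a ratio of NC to MF counts, scaled by library totals, of 23.1 with a 95% interval of 7.55 to 115 for counting error alone. NC replicate 2 held 51 of its 62 NC counts, and without that library the ratio was 6.26 (1.65 to 35.0). Usp17le, a deubiquitinase with close copies, had 0.0262, 0.210 and 0.0928 FPKM in MF replicates 1 to 3 and 0.257, 2.66 and 0.303 FPKM in NC replicates 1 to 3. MF replicate 2 was the highest MF library for Usp17le and Gm8300, as for the germ-line members, and was not for Zscan4f and Usp17la, as for Nlrp3. The MF libraries together held 11 counts for Usp17le, 9 for Gm8300, 3 for Zscan4f and 6 for Usp17la. The order of the MF libraries for Zscan4f and Usp17la is within counting error.

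Bnc1, another gene of oocytes that is also made in epithelia and mesothelium, was higher in MF. It had 4.61, 1.23 and 6.10 FPKM in MF replicates 1 to 3 and 0.314, 0.385 and 0.215 FPKM in NC replicates 1 to 3. The listed maternal-effect genes thus went both ways among the 3 in the table, with Dppa3 and Padi6 lower and Bnc1 higher.

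Of 21 listed repressors of germ-line promoters 2 are in the table. Dnmt3b, a DNA methyltransferase that acts on germ-line promoters as cells leave pluripotency, had 10.2, 23.5 and 8.30 FPKM in MF replicates 1 to 3 and 52.1, 14.2 and 48.7 FPKM in NC replicates 1 to 3. Within MF it was highest in replicate 2, where 4 of the 5 members were highest, while within NC it was lowest in replicate 2, where all 5 members were highest. Its groups overlap, and its log2 fold change was -1.45 (SE 0.58). Tet3, a methylcytosine oxidase of the zygote, rose with a log2 fold change of 1.42 (SE 0.42). The part of either in the members' levels was not tested.

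The genes whose variation within the groups was most like the members' were found by the root-mean-square distance to the median profile of Khdc3, Nlrp4c and Nlrp14, the members with a mean of at least 2 FPKM in NC, over 6 libraries and 1361 candidate genes. In order of likeness they were AU022751, Gm1070, Fam178b, Zfp936, Rinl, Prdm14, Tex14 and Gm17768, at distances between 0.0940 and 0.169 log2 units. Of the genes that make up the profile, Nlrp4c lay at 0.183, Nlrp14 at 0.196 and Khdc3 at 0.592, and of the other members Nlrp4f lay at 0.287 and Nlrp3 at 0.832. AU022751 had 0.0237, 0.541 and 0.140 FPKM in MF replicates 1 to 3 and 1.19, 4.15 and 1.07 FPKM in NC replicates 1 to 3. Prdm14, a regulator of primordial germ cells and naive pluripotency, had 0.488, 3.11 and 0.887 FPKM in MF replicates 1 to 3 and 4.19, 19.9 and 4.28 FPKM in NC replicates 1 to 3. The measure uses the 6 libraries that all genes share.

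Genes near the members did not follow one direction. Within 500 kb of a member the table holds 15 other genes, 9 lower and 6 higher in MF in the authors' table, where 36.8% of all 2031 genes are lower. Near Nlrp4c both were lower, Zscan5b at 0.289 FPKM in MF and 2.34 FPKM in NC, and Epp13 at 0.447 FPKM in MF and 3.73 FPKM in NC, out of 26 annotated protein-coding genes in that window. Near Khdc3, Rab27a, a GTPase of vesicle transport, was lower, with 2.15 FPKM in MF and 6.17 FPKM in NC. The 3 others near Khdc3 were higher. They are Unc13c, A530064N14Rik and Pygo1, a Wnt pathway cofactor with 1.54 FPKM in MF and 0.460 FPKM in NC. Near Nlrp14, Syt9, a calcium sensor of secretion, was lower, with 0.932 FPKM in MF and 5.32 FPKM in NC, and Olfml1 was higher, with 2.87 FPKM in MF and 0.254 FPKM in NC.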

How the data were processed

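Poly-A RNA was sequenced in 3 MF and 3 NC libraries. The submitters' processing notes name HISAT2 2.0.5, featureCounts and mm10, with no settings and no strand use. Per the file headers, the authors deposited per library and gene a raw count, FPKM and a normalized signal. The authors also deposited a log2 fold change, a p-value and an adjusted p-value from their own comparison, and no source used here names its tool. Counts over length and FPKM gave constant library totals, which served as library sizes.

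Of 2031 genes 48 had no name and took at most 0.0390% of a library, and 4 names turned into dates were restored by ID. Named genes whose 6-library mean reached 0.5 FPKM, 1651 in all, entered the quasi-likelihood fit of edgeR 4.0.16 in R 4.3.3, with group as the only term and Benjamini-Hochberg adjustment at 0.05; limma 3.58.1 and DESeq2 1.42.0 gave alternatives. The SE is the absolute log2 fold change over the root of the F statistic. The fit was also run on simulated counts that vary less between replicates than the real ones. That run therefore does not show how the fit performs on these data. Members and gene lists were chosen with earlier results of these data known. All members are named. Other genes are taken from up to 4 per list with the largest absolute log2 fold change among those called, and the 8 most alike with a mean of at least 1 FPKM. Padi6, Prame, Pramel3, Zscan4f, Usp17la, Tdrd7 and the genes near members were named after their values were seen. Intervals (95%, exact Poisson or Clopper-Pearson) cover counting error alone. Floors (3 counts) cover it for MF only, with the NC counts taken as exact.

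Same-numbered libraries deviated together across the 1651 genes (r = 0.39, 0.55 and 0.32 for numbers 1, 2 and 3), so the numbers were taken as pairs; this rests on the values, as no label states it; MF replicate 1 correlated more with NC replicate 3 (0.54). No replicate pair agreed within sampling noise. Of the annotated IDs, 98.6% had the same coordinates in GENCODE M21 as in the files.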

Additional observations from a re-analysis of the deposited data

How the results depend on the processing

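The 4 tested members stayed lower in MF under every alternative that was run, and Nlrp3 was tested only without the filter on low values. edgeR called 4 of them lower; with the replicate block it also called 4, with a median log2 fold change of -3.89, so the pairing changed no call of a member. A minimum of 2 FPKM left Khdc3 as the sole tested member and 1 call, and adjustment over 19069 tests gave 0 calls. Leaving out single libraries gave 0 to 4 calls and medians from -5.19 to -2.49. In limma on log2(FPKM + 1) the median was -1.38, and with a pseudocount of 1 FPKM the mean level of the 5 members in MF was -1.25 log2 units from NC in place of -3.04; both compress low values by construction. Scaling by TMM in edgeR or by median-of-ratios in DESeq2 moved the median of all tested genes from 1.22 to 0.52 and 0.16, and that of the members to -4.12 and -4.39; the calls over all tested genes were then 589 lower and 291 higher with TMM and 599 lower and 263 higher with median-of-ratios, against 584 lower and 1026 higher in edgeR and 599 lower and 1052 higher in DESeq2 on library totals. The fold values at the 3-count floor and the Zscan4f ratio without NC replicate 2 were added after seeing the data. Leaving out MF replicate 3 gave the 0 and leaving out MF replicate 2 the -5.19. Counts of 1 to 7 in MF replicate 1 limit the precision of its values. The planned protein identity was not run, and coding identity was used in its place, chosen after the files were seen; it was 83.5% over aligned columns for Nlrp4c and Nlrp4f.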
